A study of Homo sapiens with 18 samples.

Results

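The regions described here are the places in the genome of KG-1 cells where DNA topoisomerase II peaks came back in 4 or more of 8 chromatin immunoprecipitation (ChIP-seq) libraries. The MACS peaks of these 8 libraries on chromosomes 1 to 22 and X were pooled, peaks overlapping by at least 1 bp were merged, and a merged region was called recurrent if it overlapped a peak in at least 4 libraries. Of 1191649 merged regions, 500 (0.042%) met this rule. The members were therefore selected on the measured peaks, and their number, width, scores and library make-up are given as a description, with no test.

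KG-1 is an established human myeloid leukaemia line. TOP2A and TOP2B were precipitated with 5 µg and 4 µg of antibody after crosslinking in 1% formaldehyde for 10 min, and DNA from 3 precipitations per antibody was combined for each library. The etoposide experiment gave 2 libraries per antibody from cells exposed to 100 µM etoposide for 1 h and 2 from cells given the methanol vehicle for 1 h. The mitoxantrone experiment gave 1 library per antibody from cells exposed to 0.5 µM mitoxantrone for 1 h and 1 from untreated cells, and its 4 lists had no part in choosing the regions. No label states that replicates are separate cultures, and the inputs (6 samples) were not used here.

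Type II topoisomerases cut both strands of a DNA duplex, pass another duplex through the break and reseal it. TOP2A is most abundant in dividing cells, where it untangles replicated chromosomes, and TOP2B is present in dividing and resting cells and is linked to transcription. Etoposide and mitoxantrone are poisons of both enzymes: they hold the enzyme on the cut DNA, and both are used against leukaemia. The recurrent regions show where peaks of at least 4 libraries fall in the same merged region, whichever antibody or treatment they come from.

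Recurrence was rare. A peak in exactly 1 library accounted for 1117615 merged regions, and 68649 had peaks in 2 libraries and 4885 in 3. Among the recurrent regions 419 had peaks in 4 libraries, 58 in 5, 13 in 6, 4 in 7 and 6 in all 8. The recurrent regions covered 272263 bases in total. Leaving out TOP2A or TOP2B etoposide replicate 1, the 2 shortest lists, left 422 and 402 regions in 4 or more of the other 7 libraries. Leaving out any 1 of the other 6 libraries left 206 to 318.

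Many recurrent regions were chains of neighbouring peaks and not a stack of peaks over the same bases. In 182 of the 500 regions (36.4%) at least 4 libraries had a peak over 1 common base. In 231 regions no base was covered by more than 3 libraries, and in 87 by no more than 2. In 69 regions (13.8%) at least 1 library contributed more than 1 peak. The regions in 7 libraries held 10 to 12 peaks each, with at most 5 libraries over a common base. The 6 regions in all 8 libraries were the exception, with 8 peaks each and all 8 libraries over a common base. Peaks of different libraries starting at exactly the same base were seen in 46 recurrent regions (9.20%), against 6.45% of the regions in 3 libraries.

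**Figure D1:**
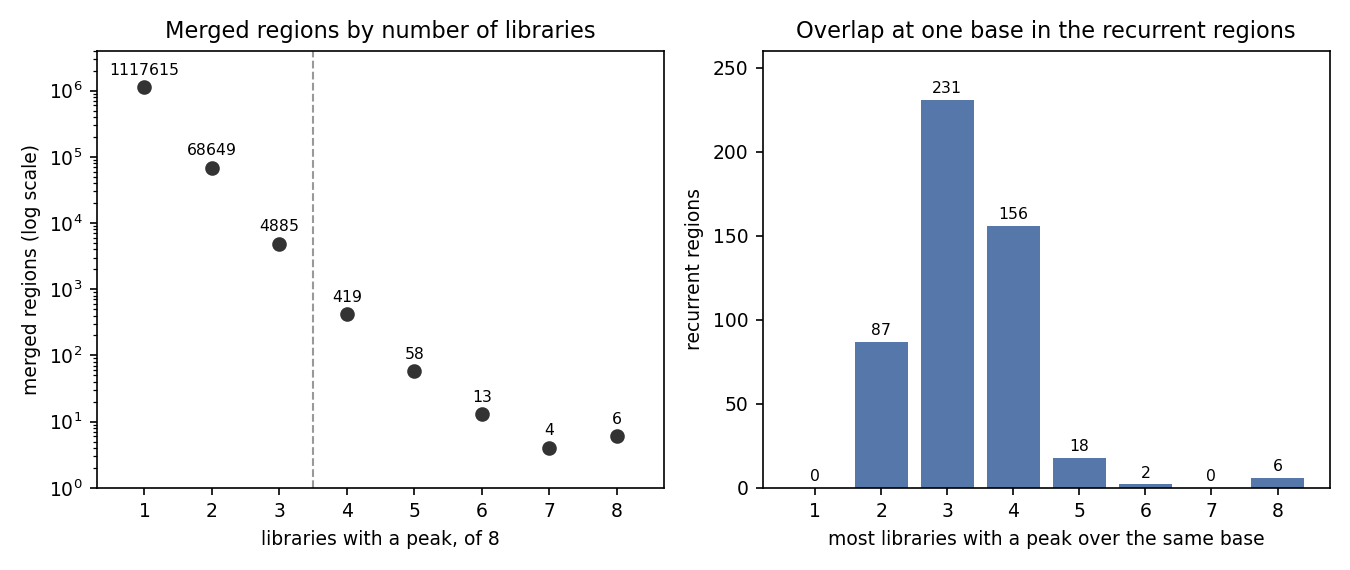
Left, the number of merged regions (log scale) by the number of the 8 etoposide-experiment libraries with a peak, where the dashed line marks the threshold of 4 libraries. Right, the 500 recurrent regions by the largest number of libraries with a peak over the same base; most lie at 3 or 4, and 6 lie at 8.

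Recurrent regions were wider than other regions, and merging overlapping peaks lengthens a region by construction. Their median width was 426 bp (quartiles 316.75 and 588.25 bp, range 139 to 4572 bp), against 124 bp for all merged regions and 284 bp for regions in 3 libraries. The median was 407 bp for regions in 4 libraries, 638.5 bp in 5, 1034 bp in 6 and 1932.5 bp in 7. It dropped back to 318 bp for the regions in all 8. The 3 widest regions were chr16:46425487-46430058 (4572 bp, 5 libraries), chr16:46432021-46435931 (3911 bp, 6 libraries) and chr10:42542556-42545492 (2937 bp, 5 libraries). The 3 narrowest, each in 4 libraries that all shared a base, were chr8:108479452-108479590 (139 bp), chr8:74008937-74009086 (150 bp) and chr15:48819870-48820020 (151 bp). Coordinates are those of hg19. Genes are not named, since the annotation at hand is on another build.

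The peaks in recurrent regions had low scores for their list in most libraries. The MACS score is the authors' own value and was ranked only within its own list. The median percentile of the members' peaks within their list ran from 17.3 (TOP2B vehicle replicate 1) to 45.9 (TOP2B etoposide replicate 1). In the last of these many peaks tie, and the members' median score of 84.5 equals that of the whole list; in the other 7 lists the members' median was the lower one. In TOP2A etoposide replicate 2 the members' peaks had a median score of 391, against 857 for the whole list. In TOP2B vehicle replicate 1 the medians were 385 and 1289. Per region, the median percentile over its libraries was 27.0 for the recurrent regions (quartiles 12.8 and 43.2) and 37.9 for the regions in 3 libraries.

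Some regions near the threshold nevertheless scored high. Just inside it, the region in 4 libraries with the highest median percentile was chr15:47531504-47532038 (90.0), followed by chr6:37315247-37315541 (87.5) and chr8:55936717-55936989 (84.9). Just outside it, in 3 libraries, chr4:62109640-62109810 reached 99.9, chr11:51588760-51589207 reached 99.5 and chr11:51586688-51587142 reached 99.4. The chromosome 11 pair lay 4.06 kb and 6.13 kb from a peak-free stretch of the kind described below, and both had MACS peaks in TOP2A etoposide replicate 1 and both TOP2B etoposide libraries, though with a percentile of at most 1.93 in TOP2B etoposide replicate 2. Neither had a MACS peak in a vehicle library, but both held sites of the second caller, SISSRs, in 3 vehicle libraries. At chr11:51586688-51587142 these had 606, 774 and 702 tags in the 3 etoposide libraries, against 4353, 1079 and 1596 in the vehicle libraries (TOP2A replicate 1, TOP2B replicates 1 and 2). Tag counts of different libraries are not on a common scale. Medians over all sites were 30, 44 and 38 in these etoposide libraries and 182, 82 and 46 in these vehicle libraries.

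All 4 combinations of antibody and treatment held recurrent regions, and the 4 shortest lists held the fewest. TOP2A etoposide replicates 1 and 2 had a peak in 116 and 347 of the 500 regions, and TOP2A vehicle replicates 1 and 2 in 338 and 342. TOP2B etoposide replicates 1 and 2 had a peak in 128 and 240, and TOP2B vehicle replicates 1 and 2 in 270 and 339. The lists of TOP2A and TOP2B etoposide replicate 1 had 35932 and 69773 peaks, and those of TOP2B etoposide replicate 2 and TOP2B vehicle replicate 1 had 102432 and 114671. Among the 4 longer lists, of 192989 to 294749 peaks, the counts were close, at 338 to 347. The highest was that of the shortest of these 4, TOP2A etoposide replicate 2. The part of list length in the counts was not tested.

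Counting each region and library with a peak as 1 hit, the 500 regions had 2120 hits. Etoposide libraries gave 831 of them (39.2%) and 31.5% of all peaks. Vehicle libraries gave 60.8% of the hits and 68.5% of the peaks. The etoposide share was 31.2% of hits in regions in 1 library, 33.9% in 2 and 36.2% in 3, so it was higher the more libraries a region had. A library can hit a region only once however long its list is. The ratio of a library's share of hits to its share of peaks was highest, at 1.94, for the shortest list, TOP2A etoposide replicate 1. It was lowest, at 0.690, for the longest, TOP2B vehicle replicate 2. In between it did not follow length strictly: it was 1.10 for the second shortest list, TOP2B etoposide replicate 1, against 1.41 for both TOP2B etoposide replicate 2 and TOP2B vehicle replicate 1. Within replicate number 1 etoposide libraries gave 28.6% of the hits and 24.3% of the peaks, and within replicate number 2 they gave 46.3% and 35.3%. The etoposide lists are the shorter ones, so list length and drug cannot be told apart in this share.

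**Figure D2:**
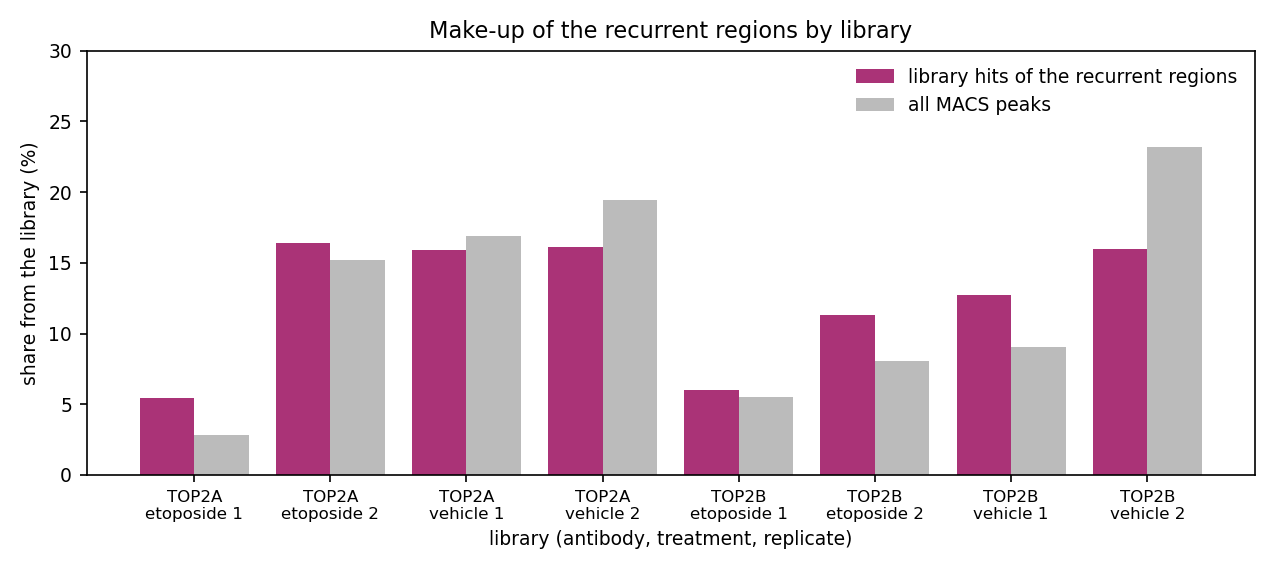
Share of each library in the 2120 library hits of the recurrent regions (purple) and in all MACS peaks of the 8 lists (grey), in percent. The share of hits lies above the share of peaks in all 4 etoposide libraries and in TOP2B vehicle replicate 1, and below it in the other 3 vehicle libraries.

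Each arm and each enzyme has 4 libraries, so with 4 or more required a region of 1 arm can only be 1 with exactly that set, and few such regions follow from the rule. Peaks in etoposide libraries alone were found in 1 region, and peaks in vehicle libraries alone in 22. All 4 etoposide libraries had a peak in 11 regions, and all 4 vehicle libraries in 41. The most frequent split was 1 etoposide and 3 vehicle libraries (198 regions), followed by 2 and 2 (160 regions). The vehicle lists hold 871017 peaks and the etoposide lists 401126. List length was not held equal in these counts, so they do not compare the arms. TOP2A peaks alone were found in 3 regions and TOP2B peaks alone in 1, while 222 had peaks in 2 libraries of each antibody. TOP2A libraries gave 53.9% of the hits and 54.3% of the peaks, and TOP2B libraries 46.1% and 45.7%. The 4 libraries of replicate number 2, which hold 65.8% of the peaks, shared 52 regions, and the 4 of replicate number 1 shared 12.

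The set of libraries differed from region to region. Of the 163 possible sets of 4 or more libraries, 104 occurred. The most frequent, TOP2A etoposide replicate 2 with both TOP2A vehicle libraries and TOP2B vehicle replicate 2, accounted for 43 regions (8.60%). These are the 4 longest lists, of 192989 to 294749 peaks. The next sets held 31, 29 and 26 regions, and all 4 vehicle libraries with no other held 22. TOP2A etoposide replicate 2 was in each of the first 4 sets. List length was not held equal in these counts.

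The recurrent regions were unevenly spread over the chromosomes. Of the 500, 150 (30.0%) lay on chromosome 8, against 9.40% of all merged regions. Per 10000 merged regions, chromosome 8 had 13.4 recurrent regions, chromosome 21 had 11.9 (19 regions) and chromosome 22 had 7.28 (12 regions). The lowest rates were 1.26 on chromosome 13 (5 regions), 1.35 on chromosome 3 (11 regions) and 1.44 on chromosome 12 (7 regions). On chromosome 21 all 19 recurrent regions lay within 1 Mb of a peak-free stretch, and on chromosome 22 none did.

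**Figure D3:**
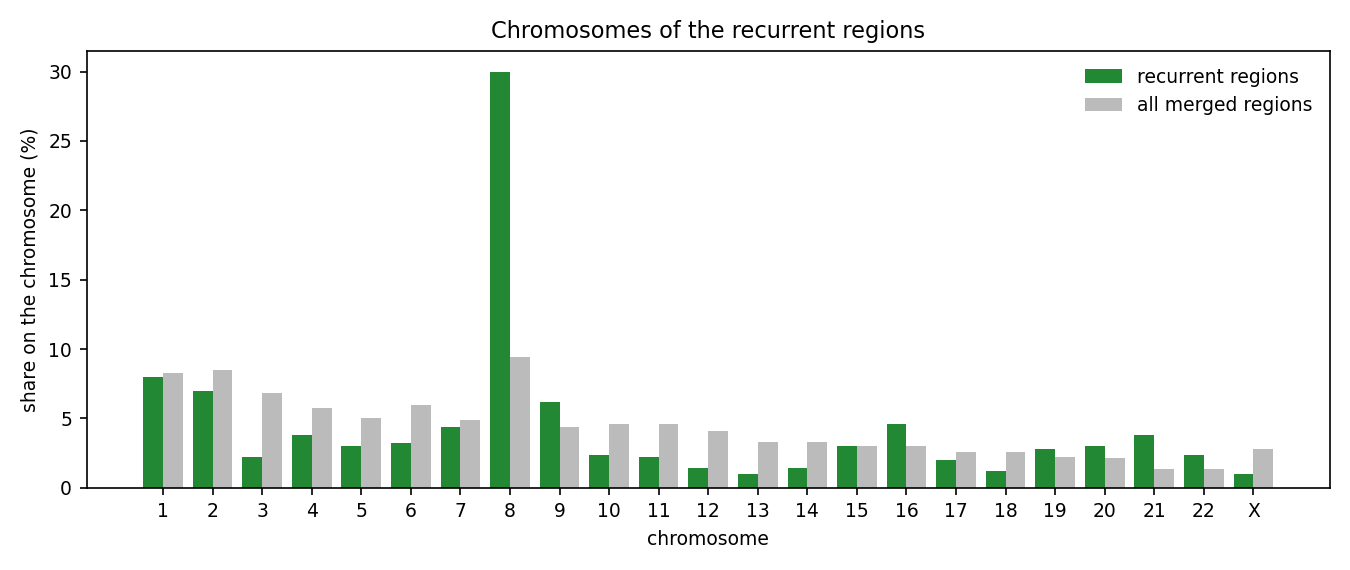
Share of the 500 recurrent regions (green) and of all 1191649 merged regions (grey) on each chromosome, in percent. Chromosome 8 holds 30.0% of the recurrent regions and 9.40% of all regions; chromosomes 21 and 22 also hold more of the recurrent regions than of all regions.

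On chromosome 8 the recurrent regions lay almost wholly on 1 side. After the peak-free stretch from 43838820 to 46838938 there were 142 (15.7 per 10000 merged regions), and before it 8 (3.74 per 10000). The last window, from 140 Mb, held 22 and the highest rate (34.7 per 10000), and the window from 80 to 90 Mb also held 22. The density of peaks moved with this. A merged region had a median of 91 others within 50 kb after the stretch, 46 before it, and 42 on the other chromosomes. Regions in 2 libraries numbered 1032 per 10000 on chromosome 8 and 529 elsewhere, and regions in 3 libraries 122 and 32.6. Only 7 of the 150 (4.67%) had 5 or more libraries, against 74 of the 350 on other chromosomes (21.1%). The part of local density in these counts was not tested.

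Another group lay at the edges of long stretches without any peak. A stretch was taken as at least 1 Mb with no peak in the 8 lists, counting the start of the acrocentric chromosomes, and this definition was chosen after the positions had been seen. There were 25 such stretches on 23 chromosomes, with a median length of 3.10 Mb. In hg19 the centromeres and the short arms of the acrocentric chromosomes are runs of unassembled bases, to which no read can align, though no assembly map was used here to match them. Within 1 Mb of a stretch lay 112 recurrent regions (22.4%), against 1.87% of all merged regions and 7.25% of regions in 3 libraries. Within 100 kb lay 56 (11.2%), against 0.269% of all and 2.56% of regions in 3 libraries.

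The regions beside a stretch differed in form from the rest. Their median width was 586.5 bp, against 390 bp for the 148 regions on chromosome 8 away from a stretch and 407 bp for the 234 in other places. Of the 112, 32 (28.6%) had 5 or more libraries, against 4.73% on chromosome 8 and 15.4% in other places. At least 4 libraries shared a base in 53.6% of them, against 27.0% and 32.5%. Etoposide libraries gave 44.5% of their hits, against 37.4% and 37.1%. TOP2A etoposide replicate 1, the shortest list, had a peak in 33.9% of them, against 17.6% and 19.7%. Library number was not held equal in these shares, and the etoposide share of hits was higher the more libraries a region had.

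Part of the recurrent regions had a near neighbour. The nearest other recurrent region was at a median distance of 179 kb, and 123 (24.6%) had 1 within 10 kb, against 15.0% of the 4885 regions in 3 libraries that had another such region this near. At longer distances the order was the other way, with 41.8% against 51.8% within 100 kb and 71.4% against 93.9% within 1 Mb. The sets differ in number, 500 and 4885, which sets how near a neighbour is, so these shares are not on an equal footing. Linking recurrent regions up to 100 kb apart gave 360 clusters, of which 291 held 1 region. The remaining 69 clusters held 209 regions (41.8%), and 10 of the 19 clusters with 4 or more regions lay beside a peak-free stretch.

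The 5 largest clusters were of different kinds. The first spanned chr1:16867556-17077033 and held 8 regions in 4 to 6 libraries each, with TOP2A vehicle libraries most often present (7 and 6 of the 8 regions). The second, at chr9:68398873-68482024, held 7 regions in 4 libraries each, and TOP2B vehicle replicate 2 had a peak in all 7 while TOP2B etoposide replicate 1 had none. The third, at chr2:90379723-90482425, held 7 regions 60.9 kb from a stretch, and etoposide libraries gave 16 of its 30 hits. The fourth was the chromosome 6 segment, described next. The fifth, chr21:11072090-11187101, held 6 regions and reached the edge of a stretch.

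The 6 regions in all 8 libraries made up 1 cluster, chr6:24650945-24667129, with no other recurrent region in it. They covered 2122 of its 16185 bases, in blocks of 661, 276, 228, 184, 360 and 413 bp from left to right. The first block, chr6:24650945-24651605, scored 3100 in all 8 lists. Scores of 3100 recurred, as at all 6 blocks in TOP2A vehicle replicate 1, so equal values do not rank the blocks. A score of 3100 stood at percentile 94.5 in TOP2A vehicle replicate 1 and 92.3 in TOP2B vehicle replicate 1. The fourth, chr6:24657996-24658179, had the lowest median rank. It scored 666 and 3100 in TOP2A etoposide replicates 1 and 2, against 3100 and 1925 in TOP2A vehicle replicates 1 and 2. It scored 328 and 460 in TOP2B etoposide replicates 1 and 2, against 973 and 984 in TOP2B vehicle replicates 1 and 2. Scores from different lists are not on a common scale, so the ranks are the measure here. The median percentile over the 8 libraries was between 95.7 and 99.9 for the 6 blocks, and the lowest single value was 13.8, in TOP2B vehicle replicate 2 at chr6:24654589-24654816. They had 40 to 49 other regions within 50 kb, against a median of 43 for all regions.

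These blocks were also the regions left when list length was made equal. When every list was cut to its 35932 highest-scoring peaks, the length of the shortest, 6 regions had peaks in 4 or more libraries, and they were these 6 blocks. Of them, 3 then had peaks in all 8 libraries, 2 in 7 and 1 in 5. The cut went by score, so it changed the scores in a list along with its length.

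The 4 regions in 7 libraries were of another form. The region chr1:121354754-121357046 (2293 bp) lay 128 kb from a peak-free stretch and lacked a peak only in TOP2B vehicle replicate 2. Its score percentiles ran from 1.10 in TOP2A vehicle replicate 1 to 57.5 in TOP2B etoposide replicate 1. The region chr4:190154961-190156532 (1572 bp) lacked a peak in TOP2A etoposide replicate 1, and its percentiles ran from 0.351 to 56.7. The region chr7:61975997-61977137 (1141 bp) lay 922 kb from a stretch, lacked a peak in TOP2B vehicle replicate 2 and had percentiles from 0.769 to 79.6. The region chr8:86559779-86562370 (2592 bp) lacked a peak in TOP2B etoposide replicate 1 and had percentiles from 3.47 to 26.9. None of the 4 had a peak in any mitoxantrone-experiment list.

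**Figure D4:**
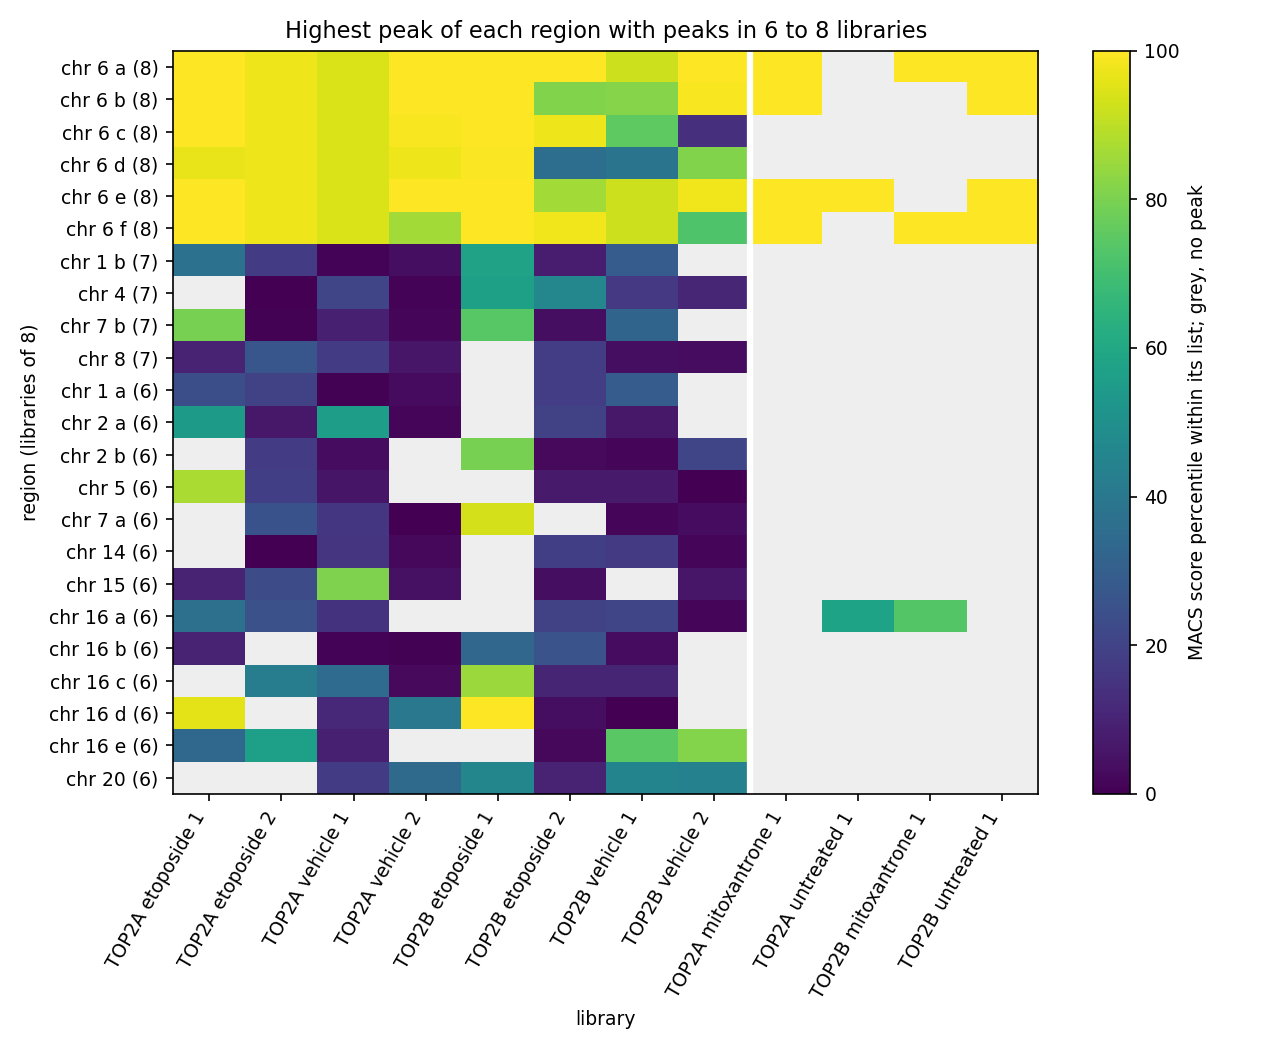
Regions with peaks in 6 to 8 libraries (rows, named by chromosome, with the number of libraries in brackets) in the 8 etoposide-experiment libraries and, right of the white line, the 4 mitoxantrone-experiment libraries. Colour gives the percentile of the region's highest MACS score within its list, and grey means no peak; the 6 chromosome 6 blocks are mostly above 80 and the regions below them mostly under 40.

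The mitoxantrone experiment gave libraries that the choice of regions had not used. Of the 500 recurrent regions, 44 (8.80%, exact 95% binomial interval 6.47% to 11.6%) overlapped a peak in at least 1 of its 4 lists, against 3.32% of all merged regions. The share was 3.27% for regions in 1 library, 4.10% in 2 and 5.04% in 3. Without the chromosome 6 segment it was 40 of 494 (8.10%). Regions are not replicates and each group has 1 library, so no test was made, and the intervals cover counting error only.

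By list, the TOP2A mitoxantrone list had a peak in 7 recurrent regions (1.4%, against 0.253% of all regions), and the TOP2A untreated list in 34 (6.80%, against 2.79%). The TOP2B mitoxantrone list had a peak in 4 (0.800%, against 0.0637%), and the TOP2B untreated list in 13 (2.60%, against 0.259%). The numbers moved with the length of the lists, which was 7584 peaks for TOP2A mitoxantrone, 109429 for TOP2A untreated, 702 for TOP2B mitoxantrone and 9259 for TOP2B untreated. Without the chromosome 6 segment the counts were 3 and 2 of 494 in the TOP2A and TOP2B mitoxantrone lists, and 33 and 9 in the TOP2A and TOP2B untreated lists. The segment thus gave 4 of the 7 TOP2A mitoxantrone hits and 2 of the 4 TOP2B mitoxantrone hits.

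**Figure D5:**
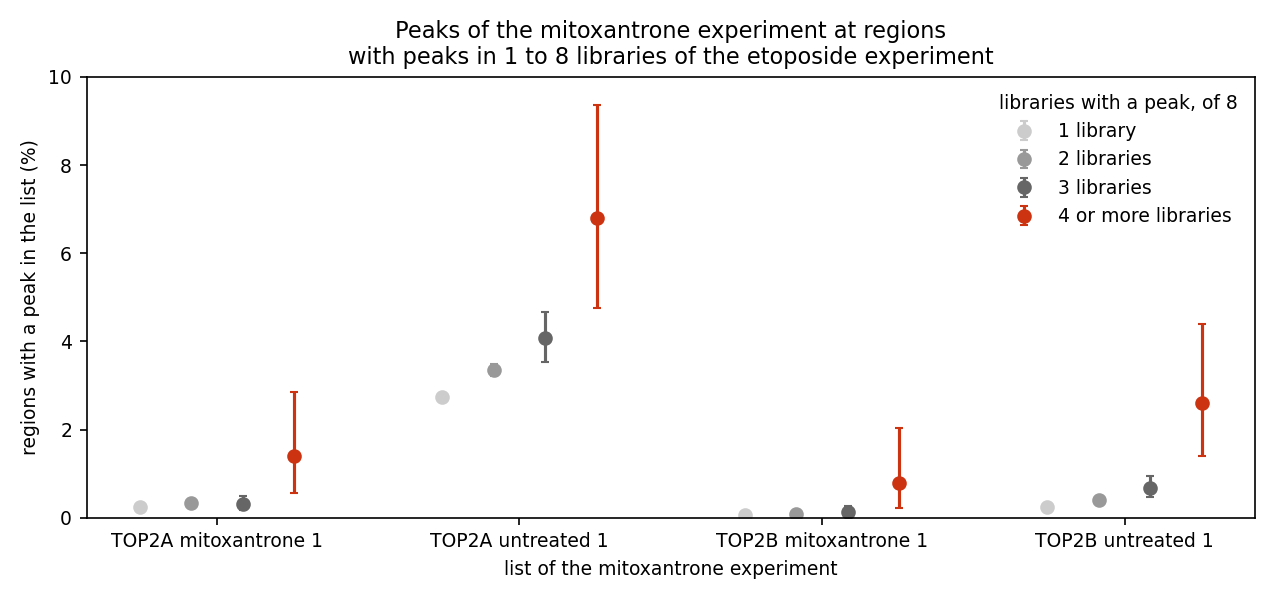
Share of regions, in percent, with a peak in each list of the mitoxantrone experiment, for regions with peaks in 1, 2, 3 and 4 or more of the 8 etoposide-experiment libraries; bars are exact 95% binomial intervals and cover counting error only. The recurrent regions are highest in each list, at 1.4%, 6.80%, 0.800% and 2.60% from left to right.

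In each width class the recurrent regions had the higher share, with the smallest gap from 500 to 1000 bp. Among regions under 250 bp it was 13.6% for the recurrent ones (6 of 44), against 3.25% for all regions. From 250 to 500 bp it was 8.79% (24 of 273), against 4.54%. From 500 to 1000 bp it was 7.80% and 6.33%, and from 1000 bp it was 7.14% (3 of 42) and 4.07%. For regions in 3 libraries the shares were 4.33%, 5.27%, 6.76% and 4.65%, from the narrowest class to the widest. The part of width in the share was not tested. By place, 15 of the 148 regions on chromosome 8 (10.1%) and 22 of the 234 in other places (9.40%) had such a peak, but only 3 of the 112 beside a peak-free stretch (2.68%). On chromosome 8 as a whole, 5.64% of all merged regions had one, against 3.08% on the other chromosomes.

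Few regions had peaks in more than 1 of the 4 lists. There were 456 recurrent regions with none, 33 with 1, 8 with 2 and 3 with 3. The 3 were chromosome 6 blocks, and another block had 2. The first block scored 2804 in the TOP2A mitoxantrone list and had no TOP2A untreated peak. It scored 619 in the TOP2B mitoxantrone list and 1067 in the TOP2B untreated list. No peak scored higher in either mitoxantrone list. The 8 regions with 2 lists were this other block and 7 more. They were chr16:33237385-33240113 (2729 bp, 6 libraries, 13 peaks), chr2:133025516-133025897 (5 libraries over a common base), chr7:56441029-56442457, chr3:13590323-13590705, chr4:49286766-49287221, chr8:123177844-123178310 and chr8:145730284-145730756. The last fell outside the 10 named by rule and is named to complete the set.

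In 5 of these 7 the 2 lists were those of untreated cells. They were the regions on chromosomes 2, 3, 4 and 7 and chr8:145730284-145730756. Percentiles in the TOP2B untreated list ran from 47.3 on chromosome 3 to 99.8 on chromosome 2 among the first 4. The chromosome 16 region had peaks in the TOP2B mitoxantrone and TOP2A untreated lists, and chr8:123177844-123178310 in the TOP2A mitoxantrone and TOP2A untreated lists.

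SISSRs, another caller run on the same libraries, gave a different view of the recurrent regions. At least 1 SISSRs site of the mitoxantrone experiment lay in 84 of them (16.8%), against 1.55% of all merged regions and 7.39% of regions in 3 libraries. The TOP2A mitoxantrone list had a site in 1 (0.2%, against 0.0416% of all merged regions). The TOP2B mitoxantrone list had a site in 0, against 0.0144% of all merged regions. This 0 allows a share of up to 0.735% (upper end of the exact 95% interval). The TOP2A untreated list had a site in 59 (11.8%, against 1.32%) and the TOP2B untreated list in 40 (8.0%, against 0.219%). The lists differ in their share of all regions too, so these counts do not compare treated with untreated cells. No site of these lists lay in the chromosome 6 segment. On chromosome 8 away from a stretch 23.0% had such a site, beside a stretch 12.5% and in other places 15.4%.

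In the 8 etoposide-experiment libraries the SISSRs sites reached recurrent regions that MACS had left without a peak. Where a library had no MACS peak in a recurrent region, it had a SISSRs site in 9.62% to 26.7% of cases, against 0.234% to 0.817% for all merged regions without a peak of that library. For regions in 3 libraries the range was 2.22% to 5.14%. Width was not held equal in these shares. Sites in all 8 libraries were found in 44 recurrent regions (8.80%): the 6 chromosome 6 blocks, 24 beside a peak-free stretch, 6 on chromosome 8 and 8 in other places. Among regions in 3 libraries it was 0.839%. The fold over background of the sites in recurrent regions was low, with medians of 5.26 to 25.0 per library, against 58.3 to 141 over all sites. Their tag counts were not: the median was above that of all sites in 5 of the 8 libraries, as in TOP2A etoposide replicate 1 (47 and 30 tags) and TOP2B vehicle replicate 2 (52 and 46 tags), and below it in 3, as in TOP2A vehicle replicate 1 (169 and 182 tags). Both callers read the same alignments, so this is not a separate measurement.

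The replicates allowed a look at libraries that a definition had not used. Merging the 4 libraries of replicate number 1 alone gave 10 regions with peaks in all 4, and 8 of these had a peak in a replicate 2 library. The share was 26.8% for regions in 3 of the 4, 14.8% in 2 and 8.88% in 1. Merging the 4 of replicate number 2 gave 47 regions with peaks in all 4, and 18 of these (38.3%) had a peak in a replicate 1 library, against 15.4%, 8.51% and 4.61% for 3, 2 and 1. Without the chromosome 6 blocks these were 2 of 4 and 12 of 41 (29.3%). Median width was larger too in regions with more libraries, at 108 bp for 1 and 405 bp for 4 in the first case and at 126 bp and 419 bp in the second. The part of width in these shares was not tested.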

How the data were processed

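TOP2A and TOP2B ChIP-seq libraries of KG-1 cells were read as 50 bp paired ends, per the labels' protocols. Per the submitters' processing notes the build was hg19, and MACS 1.4, Bowtie2 2.2.5 and bedtools 2.26.0 were used. For each of the 12 libraries the authors deposited a MACS list, with a score of at least 50 per peak, and a SISSRs list. Each deposited SISSRs site carries a tag count, a ratio over background (its fold) and a p-value. These meanings were read from the values, as the lists lack headers. Peaks were called per library by the authors; their settings, any input subtraction and the read totals were not given in the sources used here, so depth is unknown and list length stands in its place.

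MACS lists were read as intervals counted from 0 and are given here counted from 1. Merging, overlap of at least 1 bp, distances and score percentiles were computed in Python 3.11.15 with numpy 2.4.6, pandas 2.3.3 and scipy 1.17.1, and figures with matplotlib 3.10.9. Merging was run on simulated lists with planted regions. All planted peaks of a region covered its centre, so this checked the code and not regions made of chained peaks. No test across regions was run: the rule used the 8 lists, and the mitoxantrone experiment has 1 library per group. Named regions are those in 7 or 8 libraries, the 10 with the most mitoxantrone-experiment lists, the 3 widest and narrowest, the 5 largest clusters and the 3 highest-scoring ones on each side of the threshold. Named chromosomes are the 3 with the highest and the 3 with the lowest rates. The regions, the rule and the measures were chosen with earlier results of these data known. The peak-free stretches and the SISSRs sites at recurrent regions were added after the values had been seen. Alternatives were a score of at least 100, SISSRs sites, a common base, fixed windows of 200 bp, no peaks over 500 bp, merging across 500 bp, lists of equal length, thresholds of 3 and 5 libraries and each library left out.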

Additional observations from a re-analysis of the deposited data

Results flagged for a closer look

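A signal appeared outside chromosomes 1 to 22 and X. On the contigs other than chromosomes 1 to 22, X and Y, 48 of 4477 merged regions (1.07%) had peaks in 4 or more of the 8 libraries. The share on chromosomes 1 to 22 and X was 0.042%. They lay on 17 of the 60 contigs with a peak, with the highest numbers on gl000225 (10 regions) and gl000220 (7 regions), and 3 had peaks in all 8 libraries. These contigs were not part of the rule, and the cause was not tested.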

How the results depend on the processing

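Of 104 recomputed values, 37 stayed within 1.5 times the count or within the 95% binomial interval of the share. For the etoposide share of hits, the hits of a region are not independent, so that interval is a yardstick only. The number of recurrent regions, 500, became 268 at a score of at least 100, 2722 with SISSRs sites, 204 with a common base (stretches, which may lie in the same region), 804 with 200 bp windows, 10857 when peaks up to 500 bp apart were merged and 6 with equal lists. At 3 or more and 5 or more libraries it was 5385 and 81, and it was 206 to 422 without 1 library, where 4 of 7 were required; it was 402 or more only without TOP2A or TOP2B etoposide replicate 1, and at most 318 without any 1 of the other 6. The share with a mitoxantrone-experiment peak (8.80%, all regions 3.32%) became 2.61% (7 of 268) at a score of at least 100 (all regions 0.455%). It became 5.22% with 200 bp windows (all regions 2.03%). Both settings were also applied to the mitoxantrone-experiment lists, whose median scores ran from 56.1 to 69.15. At a score of at least 100, 4 of the 7 were chromosome 6 blocks, with TOP2A mitoxantrone scores of 334 to 2804, so 1 cluster gave most of that share. The share was 66.7% with equal lists (4 of 6), and 5.39% and 16.0% at 3 and 5 libraries. Without 1 library it was 8.13% to 11.9%.

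The share within 100 kb of another recurrent region (41.8%) became 30.2% at a score of at least 100 and 73.4% with SISSRs sites. It became 33.4% without peaks over 500 bp, 68.9% when merged across 500 bp and 100% with equal lists (6 of 6). At 3 and 5 libraries it was 54.9% and 37.0%. It was 24.6% at 10 kb, 71.4% at 1 Mb and 30.8% to 41.7% without 1 library. The etoposide share of hits (39.2%, 31.5% of peaks) became 36.0% at a score of at least 100 (29.0% of peaks), 45.7% with SISSRs sites (35.4%), 42.1% with a common base, 53.5% with equal lists (50.0%), and 36.6% and 43.9% at 3 and 5 libraries. Without 1 library it was 31.0% to 49.9%, and the etoposide share of peaks moved too, between 19.3% and 41.0%.

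The 2 shares by place were added after the data had been seen. The chromosome 8 share (30.0%, all regions 9.40%) became 24.9% with SISSRs sites and 19.6% with a common base. It was 35.9% with 200 bp windows and 36.0% when merged across 500 bp. With equal lists it was 0.00% (0 of 6, all regions 8.29%) and at 5 libraries 8.64% (7 of 81), both below the share of all regions. It was 20.1% to 30.3% without 1 library. The 6 regions left with equal lists were the chromosome 6 blocks, so every share in that setting describes 1 cluster. The share within 1 Mb of a peak-free stretch (22.4%, all regions 1.87%) became 14.9% at a score of at least 100 and 42.0% with SISSRs sites. It was 36.3% with a common base, 14.4% with 200 bp windows, 17.4% without peaks over 500 bp and 6.13% when merged across 500 bp. With equal lists it was 0.00% (0 of 6, below the 1.43% of all regions). At 3 and 5 libraries it was 8.65% and 39.5%, and without 1 library 21.6% to 32.5%. Fewer peaks enter at a score of at least 100, with equal lists and without 1 library, by construction; for the other moved values the cause was not tested.

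No paired analysis was possible because every result is a count or share that comes from no test and takes no block. The etoposide share within each replicate number stands in the report. The lists do not give depth, so too few reads and no enrichment cannot be told apart where a library has no peak.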
